A study of Mus musculus with 4 samples.

Results

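Genes of the machinery that docks, fuses and recycles vesicles were compared between transgenic and control mouse prefrontal cortex. The members were the probe sets (groups of short oligonucleotides on the array, each summarised to 1 intensity) whose single gene symbol begins with Syt, Stx, Vamp, Snap, Cplx, Syngr, Synj, Sv2, Rab3, Vps or Nap followed by a, b or g, or is Syn1, Syn2, Syp, Nsf, Rph3a, Amph, Bsn or Pclo. They came to 106 of 12422 probe sets and 83 of 8251 named genes. No probe set had Syn1, Rph3a, Amph or an Sv2 gene as its single symbol. The symbol rule also took in 9 genes with other known roles. These are the Golgi or endosome GTPases Rab31, Rab33a, Rab33b, Rab34 and Rab35, the snRNA gene transcription factors Snapc2 and Snapc3, the chromatin protein Vps72 and the mitochondrial outer membrane protein Synj2bp.

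The transgenic mice were females that overexpress human synaptic AChE (acetylcholinesterase, which hydrolyses the transmitter acetylcholine), and the control mice were females of the FVB/N strain. Each group had 2 arrays, and each array held prefrontal cortex RNA pooled from 4 mice. The strain of the transgenic mice, the promoter of the transgene and the ages are not given in the labels, so strain and transgene cannot be told apart. The labels do not say whether separate animals went into each pool, so p-values measure the spread between these arrays, which may be technical.

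Transmitter is released when a vesicle SNARE (a synaptobrevin, gene names Vamp) zips together with the plasma membrane SNAREs syntaxin and SNAP-25 and draws the membranes into contact. Synaptotagmins sense the calcium that triggers fusion, complexins regulate the assembled complex, and the ATPase NSF with its SNAP adaptors (genes Napa and Napb) takes spent complexes apart for reuse. Other syntaxins, Vamp proteins and the Vps proteins serve traffic between the Golgi, endosomes and lysosomes in cells of every kind.

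Array medians lay at 87.45 and 88.2 in the transgenic pools and at 87.4 and 86.6 in the control pools. Markers of neurons were present: 9 of 9 measured genes were bright enough to test, and their intensities summed to 21373 and 21473 in the transgenic pools, against 25608 and 24895 in the control pools, with 1 fall (Uchl1) and 0 rises. Markers of olfactory bulb and migrating neuroblasts summed to 2137 and 1822 in the transgenic pools, against 1300 and 943 in the control pools. Of these, 4 of 6 (Th, Eomes, Pbx3 and Meis2) rose, while Dcx and Dlx2 did not pass. Dcx overlapped, with 293.2 and 279.3 in the transgenic pools and 332.4 and 169.1 in the control pools. Dlx2 was lower in both transgenic pools (165.8 and 134.5, against 201 and 167.4). Of 10 tested interneuron markers 3 passed, Sst and Npy lower and Calb2 higher. The log2 change (transgenic minus control) was above 0 at 5 of the 10 and below 0 at 5. Their sums were 18958 and 17202 in the transgenic pools, against 20464 and 20082 in the control pools. Of 7 tested projection neuron markers 2 passed, Neurod2 higher and Camk2a lower, with 3 changes above 0 and 4 below. Their sums were 5331.9 and 4858.5 in the transgenic pools, against 5305.5 and 5606.7 in the control pools. Astrocyte markers summed to 14007 and 13839 in the transgenic pools and to 17084 and 17009 in the control pools, with 1 of 8 (Aqp4) higher and 3 (S100b, Apoe and Clu) lower. Such sums are led by the brightest probe sets. Apoe alone read 8204.6 and 7352.3 in the transgenic pools, against 10598.5 and 9872.2 in the control pools. The brightest 1 percent of all tested probe sets had a median log2 change (transgenic minus control) of -0.20. Of the oligodendrocyte, microglia, endothelial and striatal lists, 0 of 6, 1 of 9 (Tyrobp, lower), 1 of 7 (Flt1, higher) and 0 of 3 tested markers passed. Over the whole array 9.75% of tested genes passed. Eomes and Aqp4 had control means of 32.95 and 42.1, under the filter on dim probe sets (an intensity of 49.4). They were tested only through the transgenic pools, where they are high. Camk2a had a transgenic mean of 47.05 and was tested only through the control pools, where it is high. The 4 choroid plexus markers all lay under the filter, with sums of 94.3 and 93.5 in the transgenic pools, against 137.1 and 125 in the control pools. No marker was listed at 0, and Cnp, Rgs9 and Kl lay at or under the intensity floor of 19.675 on all 4 arrays. In pooled tissue, fewer cells of a type and less RNA per cell cannot be told apart, and the part of these marker differences in the results on vesicle genes was not tested.

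Vesicle genes moved in both directions, with the 2 largest changes being rises of Vps4b and Syt4 and the largest fall that of Cplx1. Of the 106 probe sets, 80 (68 genes) were tested, those with a 4-array mean log2 intensity past the 40th percentile of all probe sets. Of these 80, 12 passed at an adjusted p of 0.05 (limma, Benjamini-Hochberg over all 7453 tested probe sets), 7 higher and 5 lower in the transgenic pools. The share was 15.0% of the members, against a background of 10% over the whole array (5.46% for rises and 4.56% for falls), a share that is not far from that background and is not read as particular to them. With 1 probe set per gene, 11 of 68 genes passed, 6 higher and 5 lower, against 9.75% of all genes (5.09% higher and 4.67% lower). The median log2 change (transgenic minus control) of the tested members was -0.04, against -0.03 for all tested probe sets, and the quartiles were -0.37 and 0.21, against -0.26 and 0.21. The pools of the groups did not overlap at 48 of the 80, 19 higher and 29 lower, where 53.7% of all tested probe sets did not overlap (23.8% higher and 29.9% lower). A log2 change of over 1 in size occurred at 6 of the 80, against 5.62% of all, and an unadjusted p under 0.05 at 27, against 24.3%. Without transgenic replicate 2 the count of 12 was 7, the 11 genes were 7 without transgenic replicate 1 and 17 without control replicate 2, and without the filter on dim probe sets it was 0 (limma, with 23 members at an unadjusted p under 0.05).

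**Figure D1:**
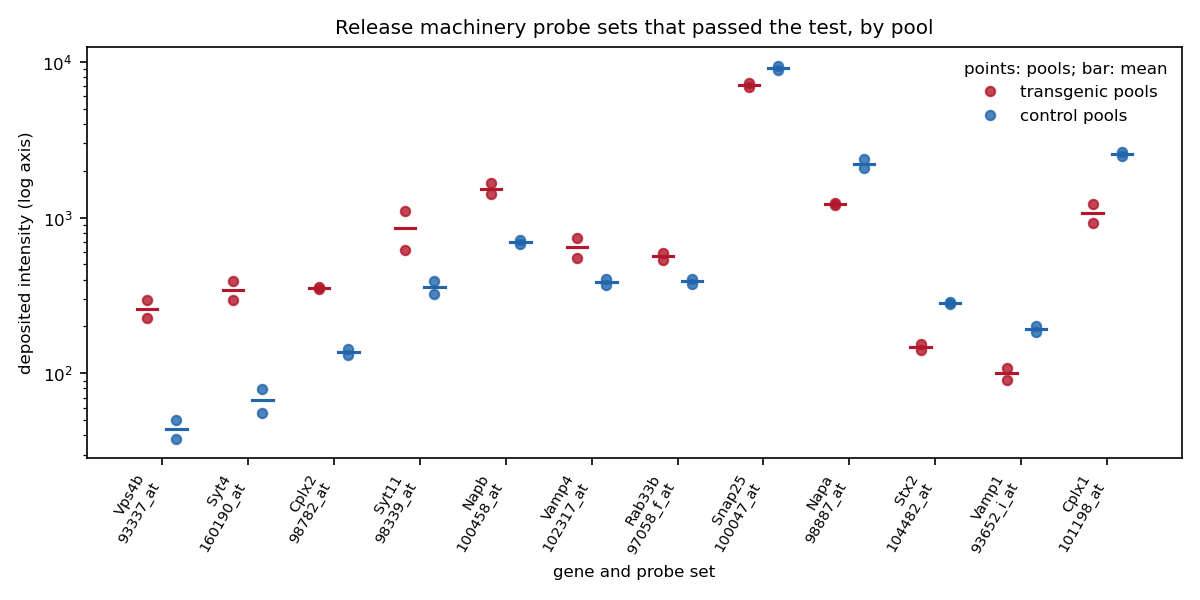
Deposited intensity on a log axis for the 12 release machinery probe sets that passed the test, with the transgenic pools (left, red) and the control pools (right, blue) as points and group means as bars, ordered from the largest rise to the largest fall. The groups do not overlap at any of the 12, and Vps4b and Syt4 show the widest gaps, where the transgenic signal was 5.91-fold and 5.10-fold that of the control pools.

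Of 10 tested SNARE regulator probe sets 4 passed, 2 higher and 2 lower, where 10% of all tested probe sets passed. The calls lay in 2 pairs of closely related genes whose members moved in opposite directions. The complexin Cplx1 read 926.7 and 1226.1 in the transgenic pools, against 2488.5 and 2642.9 in the control pools. Both transgenic pools were lower, and the signal fell 2.41-fold (log2 change -1.27 ± 0.15 SE, adjusted p = 0.000398). The complexin Cplx2 read 347.9 and 360.8 in the transgenic pools, against 144 and 130.5 in the control pools. Both transgenic pools were higher, and the signal rose 2.58-fold (log2 change 1.37 ± 0.17, adjusted p = 0.000656). Each complexin has 1 probe set, so neither change has a second reading on this array.

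The SNAP adaptors, which recruit NSF to spent SNARE complexes, also moved apart. Napa, the alpha form found in most tissues, read 1248 and 1201.5 in the transgenic pools, against 2067.2 and 2358.8 in the control pools. The signal fell 1.80-fold in groups that did not overlap (log2 change -0.85 ± 0.12, adjusted p = 0.00155). Napb, the brain-enriched beta form, read 1406.2 and 1654.3 in the transgenic pools at 100458_at, against 678.4 and 722.5 in the control pools. There the signal rose 2.18-fold (log2 change 1.12 ± 0.13, adjusted p = 0.000467), with both transgenic pools above both control pools. The second Napb probe set, 92952_f_at, read 179.9 and 334.4 in the transgenic pools and 274 and 225.3 in the control pools. Its groups overlapped and it did not pass (log2 change -0.02 ± 0.27, adjusted p = 0.979).

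The sequences around the transcription starts of these 4 genes are shown because the genes form the SNARE regulator pairs that moved apart. Each window runs from 250 bases before to 50 after the annotated start in RefSeq, assembly GRCm38.p6, 5′ to 3′ on the gene's strand. Capitals mark matches on either strand to the cAMP response element TGACGTCA or the GC box GGGCGG, and no 2 marked matches overlap. The windows lie at chr5:108549978-108550277 on the minus strand (Cplx1), chr13:54302306-54302605 on the plus strand (Cplx2), chr7:16098330-16098629 on the plus strand (Napa) and chr2:148732371-148732670 on the minus strand (Napb).
Cplx1: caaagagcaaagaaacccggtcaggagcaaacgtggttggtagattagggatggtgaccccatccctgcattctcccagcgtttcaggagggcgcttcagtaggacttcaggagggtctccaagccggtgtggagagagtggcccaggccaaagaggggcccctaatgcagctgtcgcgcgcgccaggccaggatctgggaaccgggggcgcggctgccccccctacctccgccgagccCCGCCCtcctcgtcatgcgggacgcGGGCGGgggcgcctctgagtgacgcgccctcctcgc
Cplx2: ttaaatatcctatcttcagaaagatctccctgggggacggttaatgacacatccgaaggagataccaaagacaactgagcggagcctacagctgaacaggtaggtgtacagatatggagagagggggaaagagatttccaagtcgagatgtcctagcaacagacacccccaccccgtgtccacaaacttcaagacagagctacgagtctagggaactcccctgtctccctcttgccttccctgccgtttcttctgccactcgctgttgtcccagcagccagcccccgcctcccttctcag
Napa: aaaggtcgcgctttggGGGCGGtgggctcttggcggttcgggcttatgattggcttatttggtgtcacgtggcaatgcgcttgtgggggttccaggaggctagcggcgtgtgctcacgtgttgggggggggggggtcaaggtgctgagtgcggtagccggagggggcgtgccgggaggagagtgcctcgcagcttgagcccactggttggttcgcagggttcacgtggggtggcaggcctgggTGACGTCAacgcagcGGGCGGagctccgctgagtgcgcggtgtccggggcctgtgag
Napb: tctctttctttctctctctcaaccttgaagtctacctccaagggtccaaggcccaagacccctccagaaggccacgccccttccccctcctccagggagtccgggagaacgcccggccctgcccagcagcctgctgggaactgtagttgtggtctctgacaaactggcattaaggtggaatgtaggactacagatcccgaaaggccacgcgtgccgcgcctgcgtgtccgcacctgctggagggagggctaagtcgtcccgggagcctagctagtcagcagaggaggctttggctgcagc

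The windows of Cplx1 and Napa, which fell, hold 2 GC boxes each and 24 and 25 CpG dinucleotides, and that of Napa also holds 1 cAMP response element. The windows of Cplx2, which rose, and Napb, which rose at 1 of its 2 probe sets, hold 0 matches to either motif and 9 and 13 CpG dinucleotides. Of all 32851 windows in the table, 35.7% hold a GC box and 1.79% hold the cAMP response element, and the median CpG count is 7 with quartiles of 3 and 20. With 4 windows these are descriptions of letters, with no test.

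Nsf, the ATPase that the adaptors bring in, read 1460.8 and 1942 in the transgenic pools, against 3281.5 and 2230.6 in the control pools. The groups did not overlap, but the control pools lay far apart and the log2 change of -0.68 ± 0.19 did not pass (adjusted p = 0.0527). Without control replicate 2 its log2 change was -0.96 with an adjusted p of 4.66e-05, and without control replicate 1 or transgenic replicate 1 it was -0.41 and -0.48 and did not pass (adjusted p = 0.185 and 0.316). With all arrays its adjusted p ran from 0.038 with the stricter filter to 0.472 with none, and it was 0.0399 with the replicate block. Stxbp2, a homologue of the syntaxin-binding protein Munc18, had log2 changes of -0.66 ± 0.25 and -0.20 ± 0.26 at its 2 probe sets. Its relative Stxbp3 had 0.32 ± 0.22 and the SNARE-binding protein Snapin had 0.00 ± 0.18. None of these 4 probe sets passed (adjusted p of 0.140 or more).

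**Figure D2:**
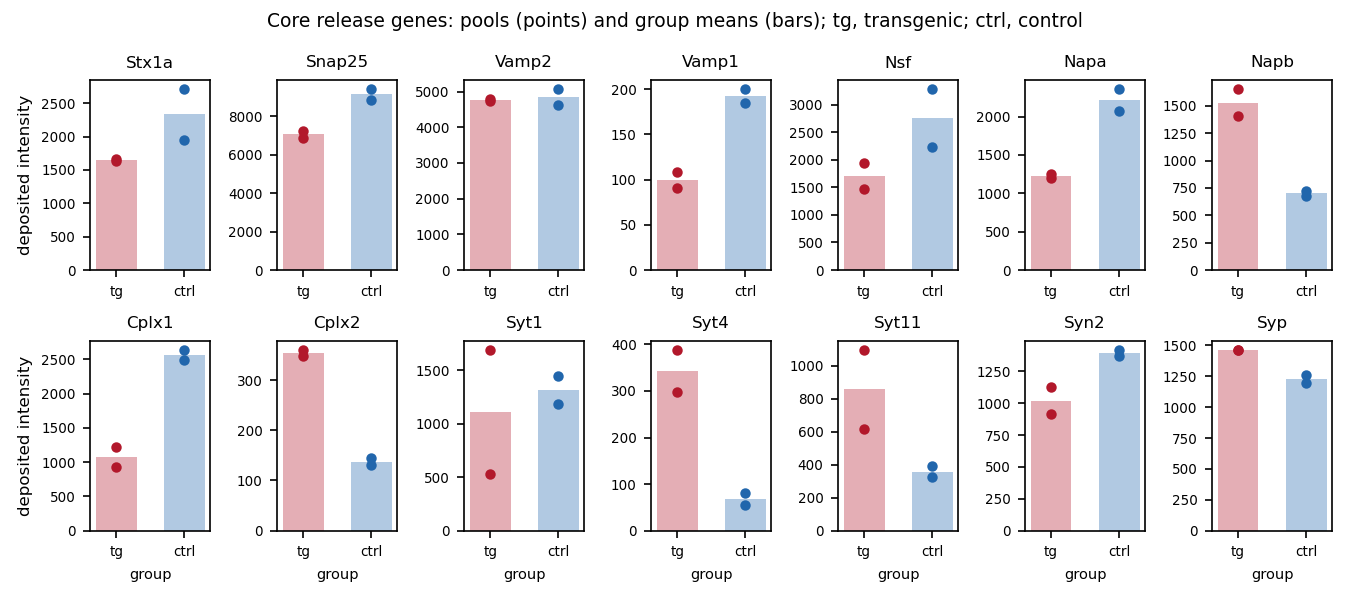
Deposited intensity from 0 upwards for 14 core release genes, 1 probe set each, with the transgenic pools (left, red) and control pools (right, blue) as points and group means as bars; each panel has its own scale. Cplx1 and Napa are lower and Cplx2 and Napb higher in both transgenic pools, while Vamp2 overlaps and Syt1 differs widely between the transgenic pools.

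Of 5 tested plasma membrane SNAREs, 2 fell and 0 rose, and 4 of 5 had a log2 change below 0 (median -0.40, against -0.03 for all tested probe sets, of which 4.56% fell and 54.2% had a change below 0). Snap25, the SNARE shared by most fast neuronal release, read 6878 and 7243.5 in the transgenic pools, against 9424.2 and 8868.3 in the control pools. The signal fell 1.30-fold (log2 change -0.37 ± 0.09, adjusted p = 0.0359). Snap25 is among the brightest 1 percent of tested probe sets, and the 75 probe sets of that class had a median log2 change of -0.20. After quantile normalization, after which that class had a median of -0.05, the log2 change of Snap25 was -0.18 and did not pass (adjusted p = 0.284), and it also did not pass with any 1 array left out (adjusted p of 0.0936 to 0.246).

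Stx2, a plasma membrane syntaxin that acts mostly outside the classical synapse, read 141.5 and 154.7 in the transgenic pools, against 288.3 and 279.9 in the control pools. The signal fell 1.92-fold (log2 change -0.94 ± 0.17, adjusted p = 0.00778), and its adjusted p was 0.0731 and 0.0572 without transgenic replicate 1 or 2. Stx1a, the neuronal syntaxin of the release complex, read 1663.7 and 1633.4 in the transgenic pools, against 2713.4 and 1954.1 in the control pools. The groups did not overlap, and the log2 change of -0.48 ± 0.15 did not pass (adjusted p = 0.0824). Without control replicate 2 it was -0.72 with an adjusted p of 0.00243, and without control replicate 1, the brighter control pool, it was -0.25 with an adjusted p of 0.509. With the replicate block the adjusted p was 0.0394. Stx4a, a syntaxin of constitutive and regulated exocytosis, had -0.40 ± 0.16 (adjusted p = 0.168) and Snap47, a relative of SNAP-25, had 0.11 ± 0.11 (adjusted p = 0.612). All 3 probe sets of Stx3 and the one of Snap23 were too dim to test, with 27.1 as the highest Stx3 value on any array.

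The vesicle SNAREs gave 1 rise and 1 fall among 9 tested probe sets of 6 genes, where 10% of all tested probe sets passed. Vamp1, synaptobrevin 1, read 108.7 and 91 in the transgenic pools at 93652_i_at, against 200.1 and 185 in the control pools. The signal fell 1.93-fold (log2 change -0.95 ± 0.21, adjusted p = 0.0185). The second Vamp1 probe set, 93653_r_at, was too dim to test, with 27.4 and 26.7 in the transgenic pools and 43.4 and 25.2 in the control pools. The adjusted p of Vamp1 was 0.066 and 0.123 without transgenic replicate 1 or 2 and 0.0685 without control replicate 1.

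Vamp2, synaptobrevin 2 and the main vesicle SNARE of forebrain synapses, had small changes at both of its probe sets. At 98926_at it read 4722.9 and 4804.7 in the transgenic pools and 5070.7 and 4635.4 in the control pools (log2 change -0.03 ± 0.10, adjusted p = 0.914). At 98925_at it read 533.8 and 683.1 in the transgenic pools and 599 and 545.6 in the control pools (log2 change 0.08 ± 0.16, adjusted p = 0.812). The groups overlapped at both.

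Vamp4, a SNARE of the trans-Golgi and endosomes, read 553.5 and 740.7 in the transgenic pools at 102317_at, against 369 and 404.1 in the control pools. The signal rose 1.66-fold (log2 change 0.73 ± 0.17, adjusted p = 0.0256), and the adjusted p was 0.176 without transgenic replicate 2. At 93191_at Vamp4 read 520.8 and 609.7 in the transgenic pools and 624.4 and 645.9 in the control pools, where both transgenic pools were lower and the change did not pass (log2 change -0.17 ± 0.14, adjusted p = 0.513). Vamp3 and Vamp8, which serve constitutive and endosomal fusion, had log2 changes of 0.13 to 0.41 at 3 probe sets, and Vamp7 had -0.01 ± 0.54, none passing. Vamp5 was too dim to test. The 6 Golgi and endosome syntaxins (Stx5a, Stx6, Stx7, Stx8, Stx12 and Stx18) gave 0 calls, where 10% of all tested probe sets passed. Their log2 changes ran from -0.50 (Stx5a, adjusted p = 0.0865) to 0.38 (Stx8, adjusted p = 0.483).

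**Figure D3:**
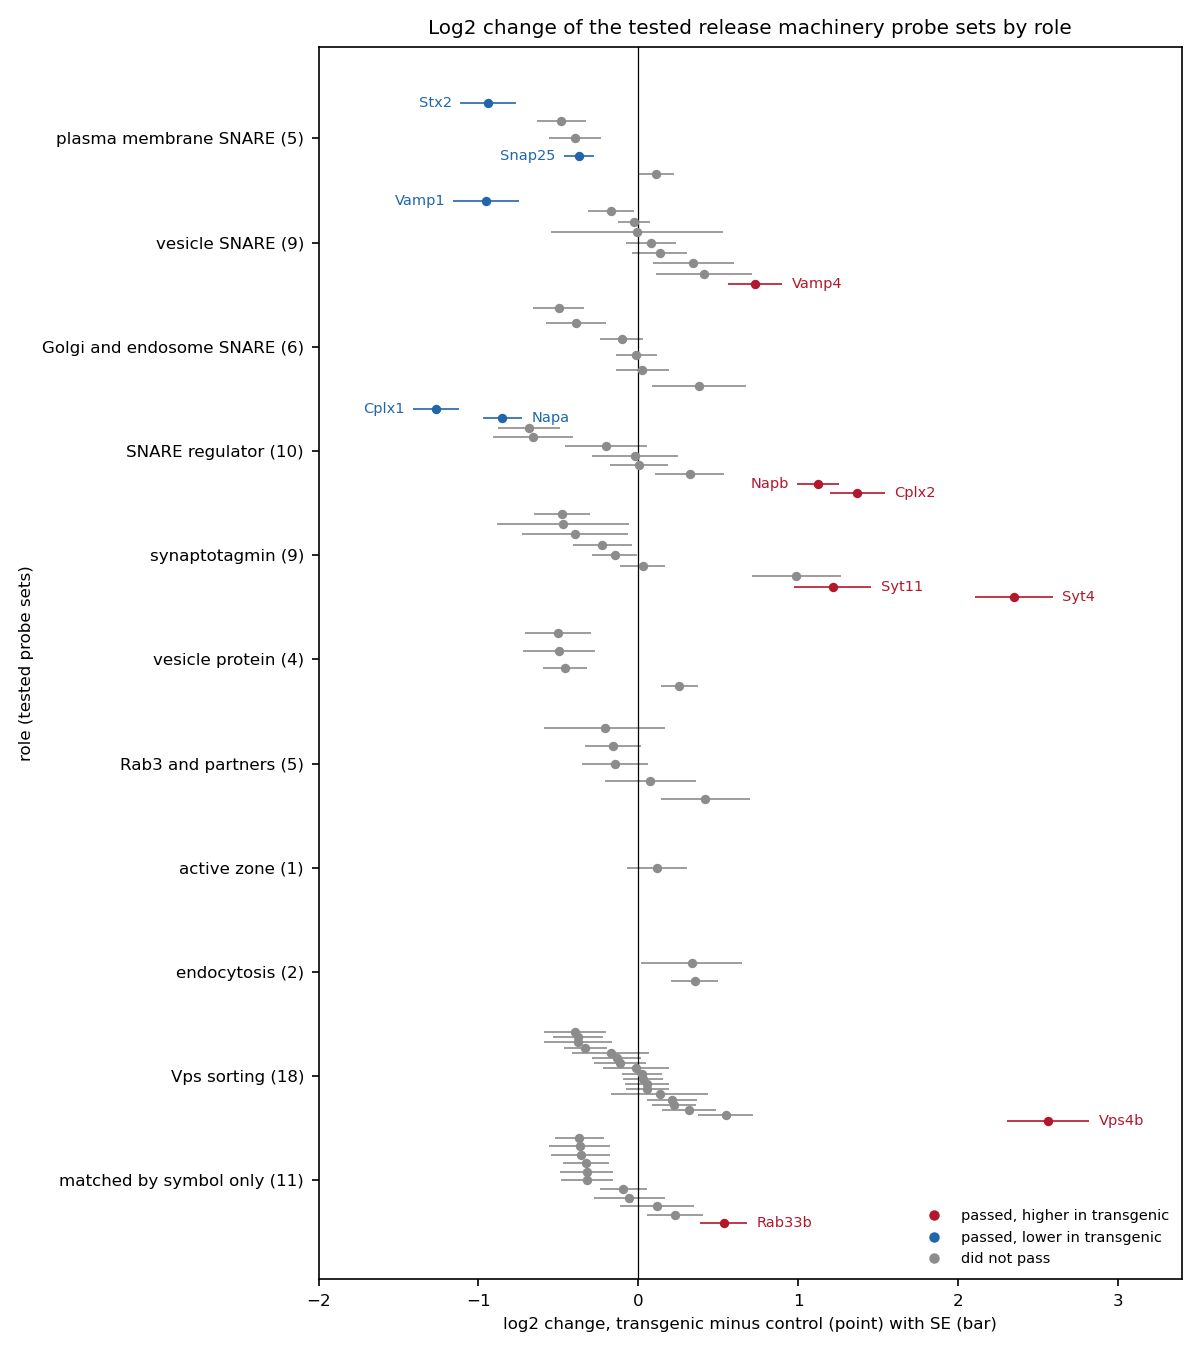
Log2 change (transgenic minus control, point) with SE (bar) for the 80 tested probe sets, grouped by role with the number tested in brackets; red passed and was higher in the transgenic pools, blue passed and was lower, grey did not pass. Calls in both directions occur among vesicle SNAREs and SNARE regulators. Most Vps probe sets lie within 0.5 of 0, as do 6035 of all 7453 tested probe sets, with Vps4b at 2.56.

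Of 9 tested synaptotagmin probe sets 2 rose and 0 fell, where 5.46% of all tested probe sets rose, and the rises were Syt4 and Syt11. Both are members whose first calcium-binding domain lacks a residue that Syt1 uses to bind calcium. Syt4 read 296.8 and 388.9 in the transgenic pools, against 55.7 and 79.8 in the control pools. The signal rose 5.10-fold (log2 change 2.35 ± 0.24, adjusted p = 0.000179), the largest change among the tested synaptotagmins. Syt11 read 619.3 and 1098.9 in the transgenic pools, against 391.4 and 322.7 in the control pools. It rose 2.32-fold (log2 change 1.21 ± 0.24, adjusted p = 0.0118), but the transgenic pools lay far apart, and without transgenic replicate 2, the brighter one, the log2 change was 0.80 with an adjusted p of 0.105.

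Syt1, the main calcium sensor of fast release in the forebrain, read 524.2 and 1691.1 in the transgenic pools and 1183.4 and 1440.4 in the control pools. Its 2 transgenic pools lay on either side of the control pools. The higher transgenic pool was 3.23 times the lower one, where the median of that ratio over the 80 tested members was 1.15, and ratios above 2 occurred at 3 members (Vamp7 with 3.73, Syt1, and Rab3a with 2.66). Its log2 change was -0.47 ± 0.41 (adjusted p = 0.541), and it was 0.37 without transgenic replicate 1 and -1.32 without transgenic replicate 2. This probe set therefore gave no direction for Syt1.

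Syt2, a fast sensor, had log2 changes of -0.48 ± 0.17 and -0.40 ± 0.33 at its 2 probe sets, and neither passed. Syt3 had 0.99 ± 0.28 at 102116_f_at, with 102.6 and 125.8 in the transgenic pools and 50 and 65.7 in the control pools, and it did not pass there (adjusted p = 0.0543). At 92916_at the log2 change of Syt3 was -0.22 ± 0.18 (adjusted p = 0.505). Syt5 and Syt17 had 0.03 ± 0.14 and -0.15 ± 0.14. Probe sets of 6 other genes of this family (Syt6, Syt7, Syt8, Syt9, Syt10 and Sytl4) were too dim to test, so no statement on their change is possible at this signal.

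Of the vesicle proteins 0 of 4 tested passed, where 10% of all tested probe sets passed, and 3 of 4 had a log2 change near -0.5. Syn2, a synapsin that tethers vesicles to one another, read 912.9 and 1126.6 in the transgenic pools, against 1421.2 and 1369 in the control pools. The groups did not overlap, and the log2 change of -0.46 ± 0.14 did not pass (adjusted p = 0.066). Syngr1 and Syngr2, synaptogyrins of the vesicle membrane, had -0.50 ± 0.23 and -0.50 ± 0.21 (adjusted p = 0.215 and 0.171). Syp, synaptophysin, a widely used marker of synaptic vesicles, read 1464.6 and 1465.9 in the transgenic pools, against 1261.9 and 1192.2 in the control pools, and did not pass (log2 change 0.26 ± 0.12, adjusted p = 0.212). Thus the point estimates of Syn2 and Syp had opposite signs without either passing.

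Rab3 GTPases, which sit on vesicles ready for release, and their partners gave 0 calls among 5 tested probe sets. Of all tested probe sets 10% passed. Rab3a read 238.3 and 89.5 in the transgenic pools and 186 and 153.4 in the control pools at 160524_at, with overlapping groups (log2 change -0.21 ± 0.38, adjusted p = 0.789). Its sign turned without transgenic replicate 2 (0.50). The second Rab3a probe set, 161790_at, was too dim to test, with 8.3 and 26.7 in the transgenic pools and 39 and 12.8 in the control pools. At the active zone, Pclo, the scaffold piccolo, read 1391.1 and 1411.9 in the transgenic pools and 1035.6 and 1613.2 in the control pools (log2 change 0.12 ± 0.19, adjusted p = 0.759). Bsn, the scaffold bassoon, was too dim to test, with 21.3 and 51.2 in the transgenic pools and 68.5 and 21.8 in the control pools. For endocytosis, the clathrin adaptor Snap91 had 0.35 ± 0.15 (adjusted p = 0.179) and the lipid phosphatase Synj2 had 0.34 ± 0.32 at its tested probe set (adjusted p = 0.574).

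Of 18 tested Vps probe sets 1 rose and 0 fell, where 5.46% of all tested probe sets rose and 4.56% fell. Of the 18, 16 lay within 0.5 of 0, as did 6035 of all 7453 tested probe sets. The rise was Vps4b, an ATPase that takes apart the ESCRT filaments of endosome sorting. It read 225.7 and 294.6 in the transgenic pools, against 38 and 50.1 in the control pools. The signal rose 5.91-fold (log2 change 2.56 ± 0.26, adjusted p = 0.000147), the largest change of all tested members with the floor used here. With 50 added to every value in place of the floor, its log2 change was 1.72 and that of Syt4 was 1.74, so their order turned. The control level of Vps4b lay under the filter on dim probe sets (a geometric mean of 49.4 over the 4 arrays), so it was tested only through the transgenic pools, where it is high, and it is not among the probe sets tested with the stricter filter. Its paralogue Vps4a, which does the same work, read 1079.3 and 1084 in the transgenic pools and 1118.1 and 1013.3 in the control pools (log2 change 0.02 ± 0.12, adjusted p = 0.937). The retromer subunit Vps26b, which had the next largest change in the group, read 842.9 and 675 in the transgenic pools, against 453.6 and 588.8 in the control pools, and did not pass (log2 change 0.55 ± 0.17, adjusted p = 0.0817). The other tested retromer subunits Vps26a, Vps29 and Vps35 had log2 changes of -0.13, -0.33 and 0.06.

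Of the 9 genes that share only the start of their symbol with the machinery, Rab33b rose at 97058_f_at, with 593.9 and 534.4 in the transgenic pools, against 373.9 and 405.1 in the control pools (log2 change 0.53 ± 0.15, adjusted p = 0.0477). At 103062_at it had 0.23 ± 0.17 and did not pass (adjusted p = 0.476). Its call was lost in 9 of 14 alternatives. Without these 9 genes, 11 calls remained among 69 tested probe sets, with 6 rises and 5 falls, where 10% of all tested probe sets passed.

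Second probe sets did not repeat any call among these genes. Of the 12 genes with more than 1 tested probe set, 3 had a call (Napb, Vamp4 and Rab33b), and in 0 of them did every tested probe set pass. The distance between the log2 changes of a gene's probe sets had a median of 0.38 and ran from 0.08 (Syt2) to 1.21 (Syt3). It exceeded 0.5 for Syt3, Napb, Vamp4 and Vps26c. In 7 of the 12 genes the signs differed between probe sets. Of the 12 called genes, 8 have a single probe set on the array, among them Vps4b, Syt4, Cplx1 and Cplx2, and their changes rest on that one reading. Probe sequences were not used here, so the transcripts or exons read by the probe sets of a gene are not compared.

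**Figure D4:**
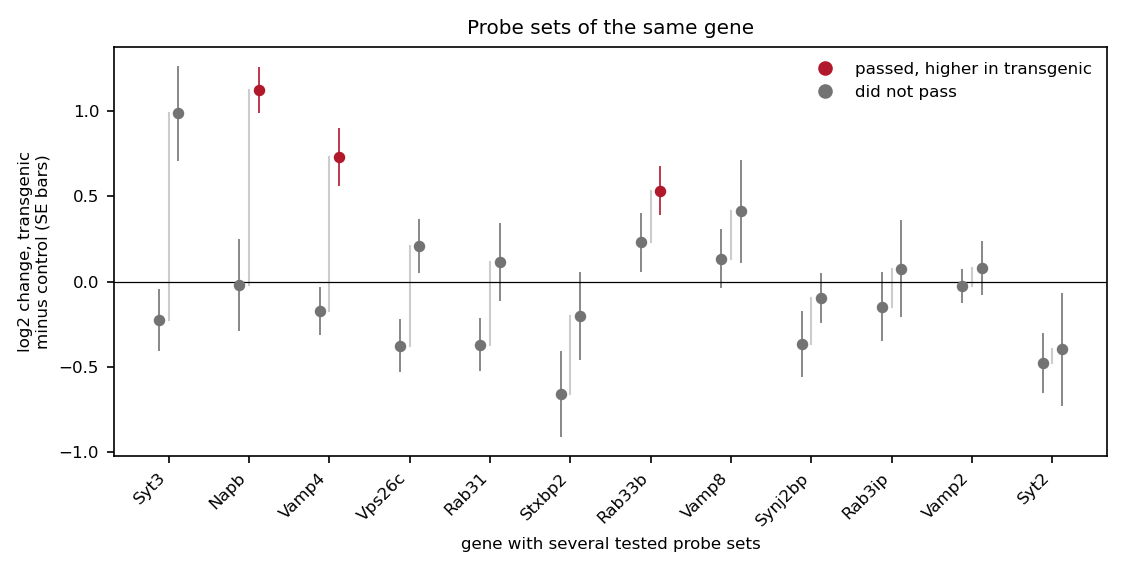
Log2 change (transgenic minus control, point) with SE (bar) for each probe set of the 12 genes that had several tested probe sets, ordered by the distance between them; red passed and was higher in the transgenic pools, grey did not pass. Napb and Vamp4 each have 1 probe set that passed and 1 close to or below 0.

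The 26 members that were too dim to test had no value above 70 on any array, and 22 of them were at the floor on at least 1 array. The 5 with the largest difference of mean floored log2 values are given as values with no test. Synj2bp at 101548_at read 36.9 and 50.9 in the transgenic pools, against 12.7 and 16.7 in the control pools, while its 2 tested probe sets had log2 changes of -0.10 and -0.37 that did not pass. Vps37a read 12.4 and 15.6 in the transgenic pools, against 28.5 and 27.4 in the control pools, and Vamp7 at 162113_r_at read 12.6 and 5.3 in the transgenic pools, against 36.5 and 19.6 in the control pools. Snap23 and Syt8 overlapped, with 62.5 and 44.2 in the transgenic pools against 50.7 and 18.7 in the control pools for Snap23, and 44.2 and 14.3 in the transgenic pools against 32.2 and 50.2 in the control pools for Syt8. Each of these 5 has at least 1 array at the floor, where values have no order.

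Other genes of release and recycling, listed beside the symbol rule, also moved in both directions. Of 97 listed symbols 53 were measured and 49 tested with 1 probe set per gene, and 9 passed (18.4%, against 9.75% of all genes), 3 higher and 6 lower, with a median log2 change of -0.05. Apba2, an adaptor that binds Munc18, read 822.4 and 851.9 in the transgenic pools, against 368.3 and 343.7 in the control pools (log2 change 1.23 ± 0.14, adjusted p = 0.000313). Lin7c, a scaffold protein, rose by 0.54 ± 0.14 (adjusted p = 0.0351), while its relative Lin7b fell by 0.62 ± 0.14 (adjusted p = 0.0234). They are another pair of close relatives that moved apart, whereas the relatives Syt4 and Syt11 both rose. Such pairs were not counted over all families, so no pattern is read from them. Hspa8, the chaperone that strips clathrin from vesicles, rose by 0.48 ± 0.13 (adjusted p = 0.0427), and did not pass after quantile normalization (adjusted p = 0.0611).

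The other falls in this list were those of Pip5k1c, Dnm1, Ap2a2, Dnajc5 and Rab11b. Pip5k1c, the kinase that makes the lipid PIP2 at synapses, read 30.3 and 30.5 in the transgenic pools, against 144.6 and 171.8 in the control pools (log2 change -2.37 ± 0.28, adjusted p = 0.000501). Its transgenic level lay under the filter on dim probe sets, an intensity of 49.4, so it was tested only through the control pools, where it is high. Dnm1, the dynamin that pinches off vesicles, fell by 0.43 ± 0.10 at 103031_g_at (adjusted p = 0.0282) and also at 103030_at (-0.43 ± 0.10, adjusted p = 0.0272). Ap2a2, a subunit of the clathrin adaptor AP-2, fell by 0.63 ± 0.12 at 100492_at (adjusted p = 0.00984) and also at 102835_at (-0.55 ± 0.14, adjusted p = 0.041). Both Dnm1 probe sets belong to the brightest 1 percent, and after quantile normalization their log2 changes were -0.20 and -0.26 and did not pass (adjusted p = 0.105 and 0.0668). Both Ap2a2 probe sets passed there too (adjusted p = 0.0136 and 0.0438). Dnajc5, a vesicle chaperone, fell by 0.79 ± 0.19 (adjusted p = 0.0292), and Rab11b, a GTPase of recycling endosomes, fell by 0.51 ± 0.12 (adjusted p = 0.0282). Without the intensity trend of the variance prior, 2 pathway genes passed, and without transgenic replicate 1 or 2 the counts were 4 and 3.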

How the data were processed

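Each probe set has 1 deposited intensity per array; its linear scale was read from the values, as no header or label states it. The deposited columns share a level (trimmed means of 249.5 to 249.6). The sources used here do not name the authors' software. Medians differed by 1.85% and upper quartiles by 2.29%, so values were used as deposited. Of 12488 probe sets, 66 controls were left out, and 10833 had a single gene symbol in the platform annotation, which is old. Symbols were updated through RefSeq's gene table (GRCm38.p6).

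Values were floored at the 25th percentile (19.675), log2-transformed and fitted with limma 3.58.1 under R 4.3.3 (lmFit, then eBayes with an intensity trend, two-sided, Benjamini-Hochberg over 7453 probe sets, threshold 0.05), with 2 residual and 7.51 prior degrees of freedom. The number of arrays limits the precision, with a median SE of 0.188 per log2 change. Folds are anti-logs of the log2 changes. Errors are SEs from that fit. Promoter windows came from RefSeq.

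The members and lists were chosen with earlier results of these data known. Named are all members that passed, all probe sets of their genes, the probe sets of 24 core symbols, the 5 untested members of largest difference, and pathway genes and markers that passed. A few further members are given for their role, chosen after their values were seen. Alternatives covered the floor, filter, variance prior, scaling, each array left out, the replicate block and plain probe set names.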

Additional observations from a re-analysis of the deposited data

How the results depend on the processing

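Under 15 alternatives, 301 of 355 values of the 24 named tested members kept their direction and side of the threshold, 36 lost a call, 10 gained one and 8 changed sign. All 12 called members kept their direction under every alternative run, but most alternatives could not have turned it. The filter, variance prior, replicate block and probe set name settings leave every log2 change as it is. In the count of 301, only the side of the threshold could change there. The groups did not overlap at any of the 12, so another floor or leaving out an array cannot turn their signs. Median scaling and quantile normalization could have done so. Without the filter on dim probe sets limma called 0 members (0 higher, 0 lower), 0 member genes and 0 pathway genes, with 23, 18 and 12 at an unadjusted p under 0.05, and 48 of all probe sets. Apart from that setting, Syt4, Cplx1, Cplx2, Napa, Napb and Vps4b passed in every alternative run, and the other 6 lost the call in at least 2 further settings. Vps4b was run in 14 of the 15. It passed the main filter only through the transgenic pools, where it is high, and was not tested with the stricter filter, so its calls do not count as support. Without the intensity trend 4 members were called higher, 395 probe sets in all and 2 pathway genes. With each array left out in turn, 7 to 17 members were called (4 to 9 higher, 2 to 8 lower), with 7 to 17 member genes, 303 to 749 of all probe sets and 3 to 10 pathway genes. The lone array of a group is there assumed to vary like the others. The members' median log2 change stayed between -0.11 and -0.02.

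Vamp2 at 98926_at turned to 0.13 with quantile normalization, and its range with 1 array left out was -0.0901 to 0.04. Other signs that turned with 1 array left out were those of Napb at 92952_f_at (-0.47 to 0.43), Pclo (-0.20 to 0.44), Syt1 (-1.32 to 0.37), Rab3a (-0.92 to 0.50) and Vamp2 at 98925_at (-0.10 to 0.26), none of them called in the report. The cause was not tested.

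The titles give both groups replicate numbers 1 and 2, but no label says that a number marks a shared source, and deviations of same-numbered arrays correlated at r = 0.0555. With the replicate block 15 members (8 higher, 7 lower) and 892 of all probe sets passed, Nsf (adjusted p = 0.0399) and Stx1a (0.0394) among them, while member genes called were 10 against 11 and pathway genes 7 against 9 without it.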
